A study of Homo sapiens with 6 samples.

Results

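The genes studied here are 8 members of the plasminogen activator system, chosen by name as invasion genes of glioblastoma, with earlier results of these data known. They are the activators PLAU and PLAT, the receptor PLAUR, and the serpins SERPINE2, SERPINB2, SERPINI1, SERPINB6 and SERPINF1. All 8 are among the 58051 genes counted. The cells were A172, an established line from a human glioblastoma, and the stable lines compared here were made by lentiviral transduction with an expression plasmid for either GFP, as the control, or the RNA-binding protein RBFOX1, so both groups carry a viral construct. RNA was sequenced from 3 biological replicates of each line (GFP and RBFOX1) grown in the same serum-containing medium, and nothing in the sources used here says whether a line came from 1 clone. The RBFOX1 lines carried the RBFOX1 transcript at 18836 ± 675 normalized counts (SD, n = 3), and the GFP lines at 1.16 ± 1.22 (SD, n = 3), so the libraries matched their labels. A normalized count is a gene's read pair count divided by its library's effective size and rescaled to the mean of the 6 libraries.

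Plasminogen is a circulating zymogen that the serine proteases tPA (encoded by PLAT) and urokinase (PLAU) cleave to plasmin, which degrades fibrin and matrix proteins and activates other proteases. Urokinase works at the cell surface when bound to its glycolipid-anchored receptor uPAR (PLAUR), and serpins trap the activators by forming a covalent complex with them. In the brain tPA also acts at synapses and vessels, and urokinase with its receptor has long been linked to the invasive growth of glioma.

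RBFOX proteins bind GCATG, most often as TGCATG in DNA letters, and the study asked how RBFOX1 alters its target mRNAs, so the motif was searched on the sense strand of the 3' UTR of the canonical transcript (GENCODE release 44, GRCh38). TGCATG was present once in PLAU and once in SERPINE2, and was not found in the 3' UTR of the other 6 members. GCATG preceded by another base was found 1 time in PLAU and 2 times in PLAT. A 3' UTR motif is common: of the 8397 tested genes with a 3' UTR as long as the 929 nucleotides of PLAU, 24.7% hold TGCATG and 55.6% hold GCATG in that length. For the 822 nucleotides of SERPINE2 the shares are 22.2% and 51.0%, and for the 1275 nucleotides of PLAT they are 32.5% and 67.8%. The 3' UTRs of PLAUR (311 nucleotides), SERPINB2 (583), SERPINI1 (246), SERPINB6 (139) and SERPINF1 (119), in which neither form was found, are shorter than the median of 1298 nucleotides over tested genes. The sites of PLAU and SERPINE2, the members with a TGCATG, are shown with the motif in capitals; the positions in the 3' UTR count from 1 at the first nucleotide past the stop codon.
PLAU, position 305, chr10:73916859-73916887, plus strand: ggcatctcctgTGCATGggtgaagggaga
PLAU, position 720, chr10:73917273-73917301, plus strand: tattattctgcaGCATGacctgtgaccag
SERPINE2, position 556, chr2:223975294-223975322, minus strand: gttttatataaTGCATGtattcactaaaa
These matches describe the letters and not the binding of the protein, which was not measured here.

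GFP replicate 1, the deepest library, stood apart from its group, its counts giving a chi-square of 8.08 and 8.23 per degree of freedom against GFP replicates 2 and 3, where no other pair of replicates was above 2.80. Without it the calls of the members were the same.

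Of the 8 members, 7 had enough counts to be tested, and SERPINB2 had no count in any library. In RBFOX1 cells 4 members fell (PLAT, PLAUR, SERPINB6 and SERPINE2) and 2 rose (SERPINF1 and SERPINI1) at an adjusted p under 0.05 in edgeR's quasi-likelihood test, while PLAU did not pass. Among all 20536 genes tested, 46.6% passed in either direction, 23.7% as higher and 22.9% as lower, so that a change was common in these cells. The median log2 fold change was -0.49 over the 7 members tested and 0.005 over all genes tested. No test was made of this difference, as the members were chosen with earlier results known. With a log2 fold change of 1 or more in size required too, 2 members were lower (PLAT and PLAUR) and 1 was higher (SERPINF1), where 4.48% of all genes tested were lower and 8.23% were higher. In 6 of the 7 members the libraries of the 2 groups did not overlap, SERPINI1 being the exception, and this held for 53.4% of all genes tested. As these are RNA pools from whole cultures, fewer cells expressing a gene and less RNA of it per cell cannot be told apart.

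**Figure D1:**
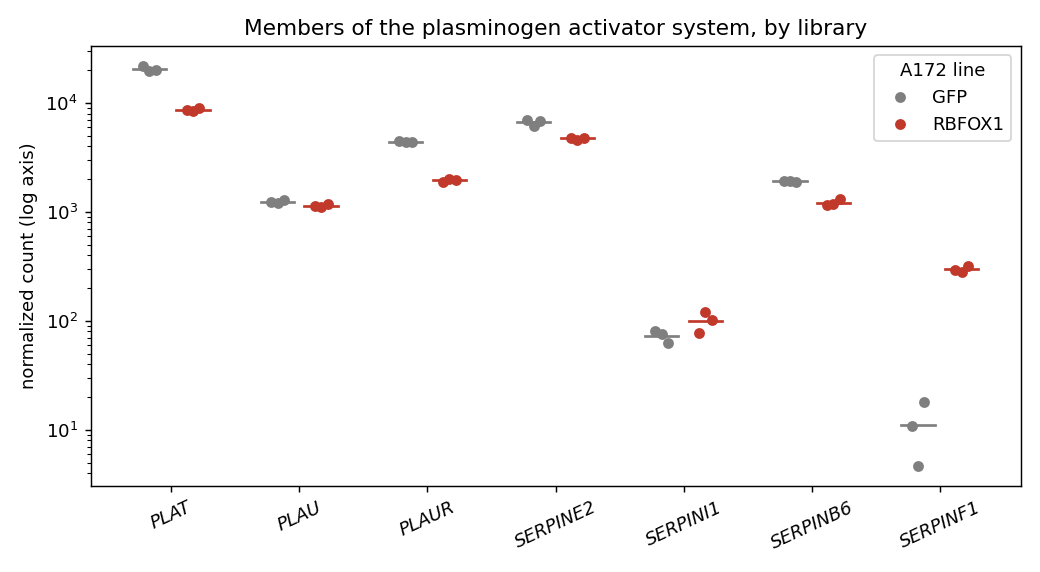
Normalized counts on a log axis of the 7 members with counts, each point 1 library and each line the mean of 3 (grey, GFP; red, RBFOX1). PLAT and PLAUR lay lower in all 3 RBFOX1 libraries, PLAU lay close to its GFP values, and SERPINF1 rose from 4.67 to 17.9 in GFP to 279 to 322 in RBFOX1 cells; SERPINB2 was at 0 in every library and is not drawn.

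PLAT (ENSG00000104368, chromosome 8, 42174718 to 42207709, minus strand) was the most abundant of the members. It had 21922, 19534 and 20018 normalized counts in GFP replicates 1, 2 and 3, and 8587, 8516 and 9030 in RBFOX1 replicates 1, 2 and 3. Every RBFOX1 library lay under the lowest GFP library. The log2 fold change was -1.23 (standard error 0.0526, adjusted p = 1.5e-13, edgeR), which made GFP cells 2.35-fold higher, and 4.61% of the genes tested had a lower log2 fold change. Of the protein-coding genes beside PLAT, AP3M2 (3045 bp away) did not pass the threshold at a log2 fold change of -0.10, and IKBKB fell by 0.40 on the log2 scale.

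PLAU (ENSG00000122861, chromosome 10, 73909177 to 73917496, plus strand), the second activator, differed little. Its normalized counts were 1234, 1196 and 1289 in GFP and 1125, 1110 and 1184 in RBFOX1 cells, the highest RBFOX1 library just under the lowest GFP library. The log2 fold change of -0.12 (standard error 0.0556, approximate 95% interval -0.23 to -0.01) had an adjusted p of 0.0874 in the edgeR test, and the alternative fits gave 0.0411 (upper quartile scaling) to 0.287. The neighbour CAMK2G, 34586 bp away, rose by 0.39 on the log2 scale, and VCL on the other side had a log2 fold change of -0.02 and did not pass the threshold. A lncRNA on the opposite strand, C10orf55, shares 915 exonic bases with PLAU in the annotation but had 5 counts at most in a library, where PLAU had at least 620.

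PLAUR (ENSG00000011422, chromosome 19, 43646095 to 43670547, minus strand), which encodes the urokinase receptor, had 4491, 4366 and 4407 normalized counts in GFP and 1899, 1994 and 1972 in RBFOX1 cells. The receptor transcript was 2.26-fold higher in GFP cells, and its log2 fold change was -1.18 (standard error 0.0474, adjusted p = 6.6e-14, edgeR), and the groups were far apart compared with the spread within either. Its nearest protein-coding neighbour CADM4, 6245 bp away on the same strand, rose by 0.58 on the log2 scale. AP-1 is a textbook regulator of PLAUR, so the 250 bases before each RefSeq start (GRCh38.p14) were searched on both strands for its letters TGANTCA. At least 1 match was found in 6.57% of the 35116 promoters searched. Among the members, 6 of 8 had an entry in the promoter table. A match was present 186 nucleotides before the start of PLAUR and 102 before that of SERPINB2, and none in the searched windows of PLAU, SERPINE2, SERPINB6 and SERPINI1. The PLAUR match lies within an exon of a longer transcript in GENCODE. Both are shown, with the motif in capitals, as the only AP-1 matches in the windows searched.
PLAUR, chr19:43670338-43670366, minus strand: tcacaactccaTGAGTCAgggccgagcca
SERPINB2, chr18:63887592-63887620, plus strand: gagtaaaatgtTGAATCActcaaaggaca
The binding of AP-1 was not measured here. Of the other motifs searched in the same windows, GGGCGG (SP1, in 42.6% of promoters) was present for PLAU, SERPINE2 and SERPINB6, CCAAT (32.0%) for PLAU and SERPINE2, CACGTG (an E-box, 6.34%) for SERPINE2 and TATAAA (10.7%) for SERPINB2. PLAU, SERPINE2 and SERPINB6 had several starts and windows, and each is named if any of its windows held the motif. The shares are per single promoter, so they are not the rate for a gene with several.

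Of the inhibitors among the members, SERPINE2 fell, SERPINB2 was not detected, and SERPINI1 was called higher but not in every fit. SERPINE2 (ENSG00000135919, chromosome 2, 223975045 to 224039318, minus strand) encodes protease nexin-1, which inhibits thrombin, urokinase and tPA. Its normalized counts were 6964, 6148 and 6793 in GFP and 4819, 4606 and 4788 in RBFOX1 cells, without overlap. It fell by 0.49 on the log2 scale (standard error 0.0521, adjusted p = 1.57e-07, edgeR), GFP cells being 1.4-fold higher. Its neighbour MRPL44, 7331 bp away, had a log2 fold change of -0.04 and did not pass the threshold.

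SERPINI1 (ENSG00000163536, chromosome 3, 167735243 to 167825569, plus strand) encodes neuroserpin, an inhibitor of tPA in nervous tissue. It was measured at low counts, 132, 65 and 59 in GFP and 43, 108 and 111 in RBFOX1 replicates 1, 2 and 3. After normalization these were 80.1, 75.9 and 62.2 in GFP and 78.0, 120 and 101 in RBFOX1 cells. RBFOX1 replicate 1, the shallowest library, lay within the range of the GFP libraries. The log2 fold change was 0.47 (standard error 0.154, adjusted p = 0.0161, edgeR), and the call was lost without GFP replicate 3 (adjusted p = 0.0678), without RBFOX1 replicate 2 (adjusted p = 0.135) and with DESeq2 (adjusted p = 0.0880). The gene PDCD10 starts 304 bp from SERPINI1 on the opposite strand, a head-to-head pair, and PDCD10 fell by 0.42 on the log2 scale (844 to 626 normalized counts on average). GOLIM4 on the other side fell by 0.62.

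SERPINB2 (ENSG00000197632, chromosome 18, 63871692 to 63903888, plus strand), which encodes PAI-2, was not detected. A count of 0 allows up to 3 counts, or 1.82 to 5.44 normalized counts depending on the library, which is at most 3 read pairs beside the 620 to 2033 of PLAU. Such limits cover counting error only. In the annotation used here SERPINB2 shares 547 exonic bases with a protein-coding gene on the same strand (ENSG00000289724) that the counts did not include. In the same cluster SERPINB10, 4070 bp downstream, also had no count, and SERPINB7 had 12 to 62 counts and a log2 fold change of -0.30 that did not pass the threshold (adjusted p = 0.385, edgeR).

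The largest difference among the members was that of SERPINF1 (ENSG00000132386, chromosome 17, 1762029 to 1777565, plus strand), which encodes PEDF, a secreted serpin without protease-inhibitory activity that is known for restraining vessel growth. It had 18, 4 and 17 counts in GFP and 161, 251 and 353 in RBFOX1 replicates 1, 2 and 3, or 10.9, 4.67 and 17.9 against 292, 279 and 322 normalized counts. The GFP values were low and spread, while the RBFOX1 values were close to each other. The log2 fold change was 4.71 (standard error 0.187, adjusted p = 5.35e-14, edgeR) and ran from 4.44 to 5.07 with 1 library left out. Of the genes tested, 99.3% had a lower log2 fold change. Its neighbours did not move with it: SERPINF2, the gene of the plasmin inhibitor alpha2-antiplasmin 6764 bp upstream, had 3 to 12 counts and a log2 fold change of 0.14 (adjusted p = 0.847), and SMYD4, 1920 bp downstream, had one of 0.01 (adjusted p = 0.935, both edgeR).

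SERPINB6 (ENSG00000124570, chromosome 6, 2948159 to 2972165, minus strand) encodes an intracellular serpin that inhibits trypsin-like proteases. With 1943, 1943 and 1887 normalized counts in GFP and 1168, 1178 and 1306 in RBFOX1 cells SERPINB6 fell by 0.66 on the log2 scale (standard error 0.0552, adjusted p = 4.93e-09, edgeR). The 3 RBFOX1 libraries lay well under the GFP libraries. Its neighbour NQO2, 15822 bp away, fell by 0.58, and SERPINB9 on the other side had no count.

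Levels were compared between genes per kilobase of merged exons. In GFP cells the order, in normalized counts per kilobase, was PLAT (2637 ± 163), PLAUR (992 ± 14.3), SERPINE2 (741 ± 48.0), PLAU (420 ± 16.0), SERPINB6 (146 ± 2.47), SERPINI1 (34.2 ± 4.42) and SERPINF1 (3.74 ± 2.21; n = 3 each, SD), with no overlap between neighbours in that order. In RBFOX1 cells it was PLAT (1121 ± 35.9), SERPINE2 (529 ± 12.8), PLAUR (439 ± 11.2), PLAU (386 ± 13.3), SERPINF1 (99.6 ± 7.48), SERPINB6 (92.2 ± 5.82) and SERPINI1 (46.9 ± 9.87; n = 3 each, SD), and only SERPINF1 and SERPINB6 overlapped. The order of PLAUR and SERPINE2 in RBFOX1 cells depends on the length used, since per kilobase of the longest transcript PLAUR (1214 ± 30.9) was above SERPINE2 (791 ± 19.2; n = 3 each, SD). The summed level of the members was 4974 ± 224 normalized counts per kilobase in GFP and 2714 ± 70.5 in RBFOX1 cells (n = 3 each, SD).

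Per kilobase of merged exons, the make-up of the members shifted. PLAT made up 54.1, 52.7 and 52.2% of the summed level in GFP replicates 1, 2 and 3, and 41.3, 41.0 and 41.6% in the RBFOX1 replicates. PLAU, whose own level differed little, went from 8.03 to 8.85% in GFP to 14.1 to 14.4% in RBFOX1 cells. SERPINF1 went from 0.0328 to 0.121% up to 3.49 to 3.86%. The size of such shares depends on the length used, and shares per kilobase of the longest transcript were not computed.

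**Figure D2:**
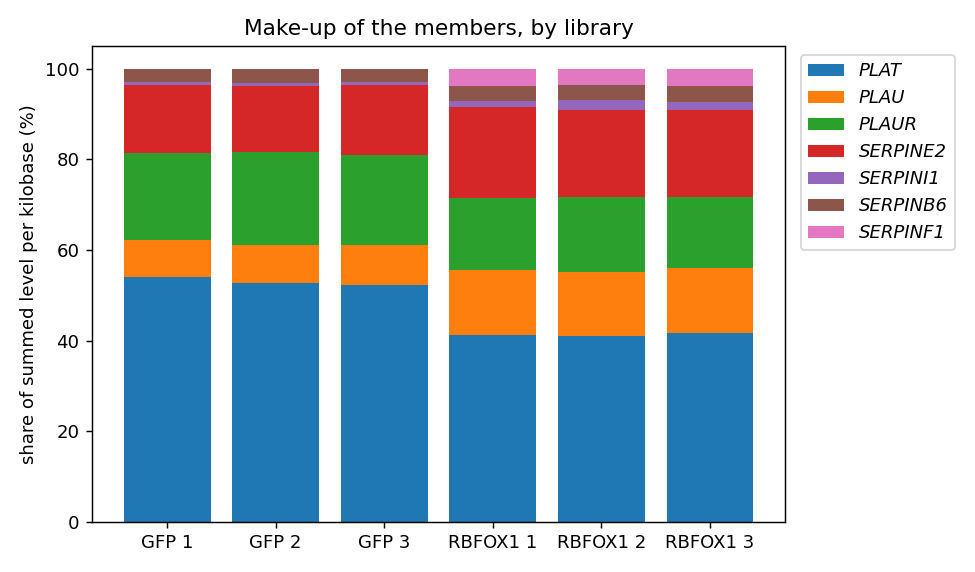
Share of each member in the summed level of the members (normalized counts per kilobase of merged exons, in percent), 1 bar per library. PLAT takes 52.2 to 54.1% in GFP and 41.0 to 41.6% in RBFOX1 libraries, and the shares of PLAU and SERPINF1 are larger in each RBFOX1 library.

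Ratios within a library do not depend on how libraries are scaled. PLAT stood 6.74, 6.20 and 5.89 times above PLAU per kilobase in GFP and 2.90, 2.91 and 2.89 times in RBFOX1 cells, with the RBFOX1 libraries close together. Per kilobase of the longest transcript, a length tried after the data were seen, PLAT stood 12.7 ± 0.870 times above PLAU in GFP and 5.87 ± 0.0182 times in RBFOX1 cells (n = 3 each, SD). PLAU relative to its receptor PLAUR went the other way, from 0.415, 0.414 and 0.442 in GFP to 0.895, 0.842 and 0.908 in RBFOX1 cells. With the longest transcript it was 0.170 ± 0.00640 and 0.353 ± 0.0140 (n = 3 each, SD). In a ratio between single genes, a change of length multiplies every library by the same factor. The level of such a ratio therefore depends on the length, while its direction between the groups could not change. The activators PLAU and PLAT together relative to the inhibitors SERPINE2, SERPINB2 and SERPINI1 gave 3.95 ± 0.111 in GFP and 2.62 ± 0.0592 in RBFOX1 cells (n = 3 each, SD), a lower ratio in all 3 RBFOX1 libraries. Taken apart, the activators differed in direction. PLAT relative to SERPINE2 went from 3.56 ± 0.144 in GFP down to 2.12 ± 0.0608 in RBFOX1 cells. PLAU relative to SERPINE2 went from 0.569 ± 0.0271 up to 0.731 ± 0.0213 (n = 3 each, SD). The ratio of both activators holds the 3 serpins alone and not every inhibitor of the activators, so no balance of activators against inhibitors in these cells can be read from it, in either direction. No test was made of these ratios, which were built from genes picked with their values known.

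**Figure D3:**
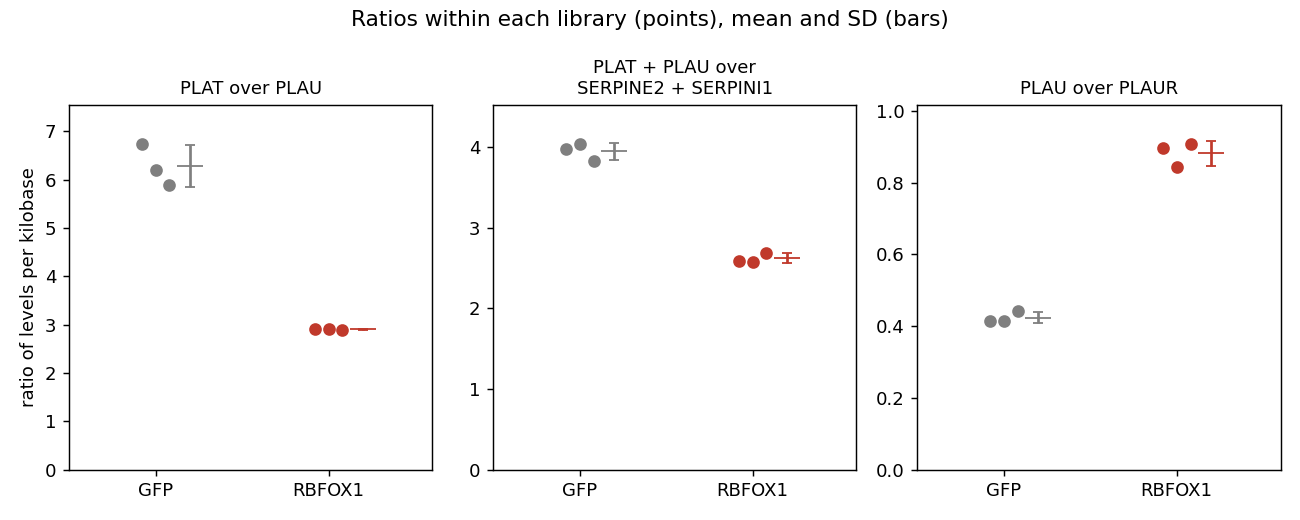
Ratios of levels per kilobase within each library (points) with the mean and SD of 3 libraries beside them. PLAT over PLAU (left) was 5.89 to 6.74 in GFP and 2.89 to 2.91 in RBFOX1 cells. The sum of PLAT and PLAU over that of SERPINE2 and SERPINI1 (middle, SERPINB2 being at 0) was lower in RBFOX1 cells. PLAU over PLAUR (right) was 0.414 to 0.442 in GFP and 0.842 to 0.908 in RBFOX1 cells.

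A wider list of 46 genes of the system holds none of the members. Of these, 33 were tested, and 7 rose, 11 fell and 15 did not pass the threshold in RBFOX1 cells. Their median log2 fold change was -0.11. Of all genes tested, 23.7% were called higher and 22.9% lower. Plasminogen itself (PLG) had no count in any library, so no transcript of the activators' substrate was detected. Among 11 further inhibitors, 6 were tested, with 2 higher and 1 lower. SERPINB8, an intracellular serpin, fell by 1.21, from 198 ± 7.46 to 88.3 ± 14.7 normalized counts (n = 3 each, SD). SERPING1, the C1 inhibitor, rose by 1.37, from 21.1 ± 0.119 to 55.7 ± 10.0 (n = 3 each, SD), and the Kunitz inhibitor SPINT2 had 2, 0 and 0 counts in GFP and 6, 6 and 6 in RBFOX1 cells.

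Of 15 genes for binding or uptake at the cell surface, 14 were tested, with 2 higher, 7 lower and a median log2 fold change of -0.39. Over all genes tested the shares were 23.7% higher and 22.9% lower. The plasminogen receptors S100A10 (3620 ± 509 and 3385 ± 326 normalized counts in GFP and RBFOX1 cells, n = 3 each, SD) and ENO1 (13644 ± 881 and 12905 ± 487) did not pass the threshold. S100A10 depended on GFP replicate 1, without which it was called lower (log2 fold change -0.20, adjusted p = 0.00223, edgeR). ANXA2, the annexin that carries S100A10 at the membrane, fell by 0.35 on the log2 scale. In GFP cells it stood above ENO1 per kilobase (2826 and 2616 normalized counts), and the other 6 that fell had log2 fold changes of -0.60 (ITGAV) to -0.43 (PLGRKT). LRP1, the uptake receptor of protease and serpin complexes, had a log2 fold change of 0.30 (adjusted p = 0.0417, edgeR) with overlapping groups. Its call was lost in 5 of the alternative fits, among them those without GFP replicate 1 (log2 fold change 0.10, adjusted p = 0.120), without RBFOX1 replicate 1 (adjusted p = 0.167) and without RBFOX1 replicate 2 (adjusted p = 0.118, all edgeR). VTN, encoding vitronectin, which binds uPAR, rose by 2.90 on the log2 scale from 7 to 12 counts in GFP to 45 to 71 in RBFOX1 cells (adjusted p = 1.69e-08, edgeR). Of 7 genes for the zymogen and other activators, 4 were tested and 1 was higher, HPN, at 1, 0 and 0 counts in GFP and 1, 3 and 6 in RBFOX1 cells. The call of HPN was lost with DESeq2 (adjusted p = 0.0959), and its counts were too few to be tested with filterByExpr or without RBFOX1 replicate 2 or 3. In the same list F12, coagulation factor XII, had a log2 fold change of -0.16 (adjusted p = 0.431) and ST14, matriptase, had 1 to 7 counts and did not pass (adjusted p = 0.279, both edgeR).

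Of 13 plasmin substrates and plasmin-linked genes, 9 were tested, with 2 higher and 3 lower (23.7% and 22.9% of all genes tested). MMP14, a membrane-bound matrix protease, fell by 1.37 from 7439 ± 209 to 2892 ± 109 normalized counts, and LTBP1, which holds latent TGF-beta in the matrix, fell by 0.77 from 2179 ± 35.5 to 1279 ± 3.95 (n = 3 each, SD). THBS1, encoding thrombospondin-1, rose by 3.02 from 198 ± 22.4 to 1604 ± 31.6, and F3, encoding tissue factor, rose by 2.55 from 82.3 ± 9.23 to 484 ± 32.2 (n = 3 each, SD). The adjusted p of these 4 genes was at most 8.08e-11 (LTBP1) in the edgeR test. In each the groups did not overlap, which held for 53.4% of all genes tested.

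**Figure D4:**
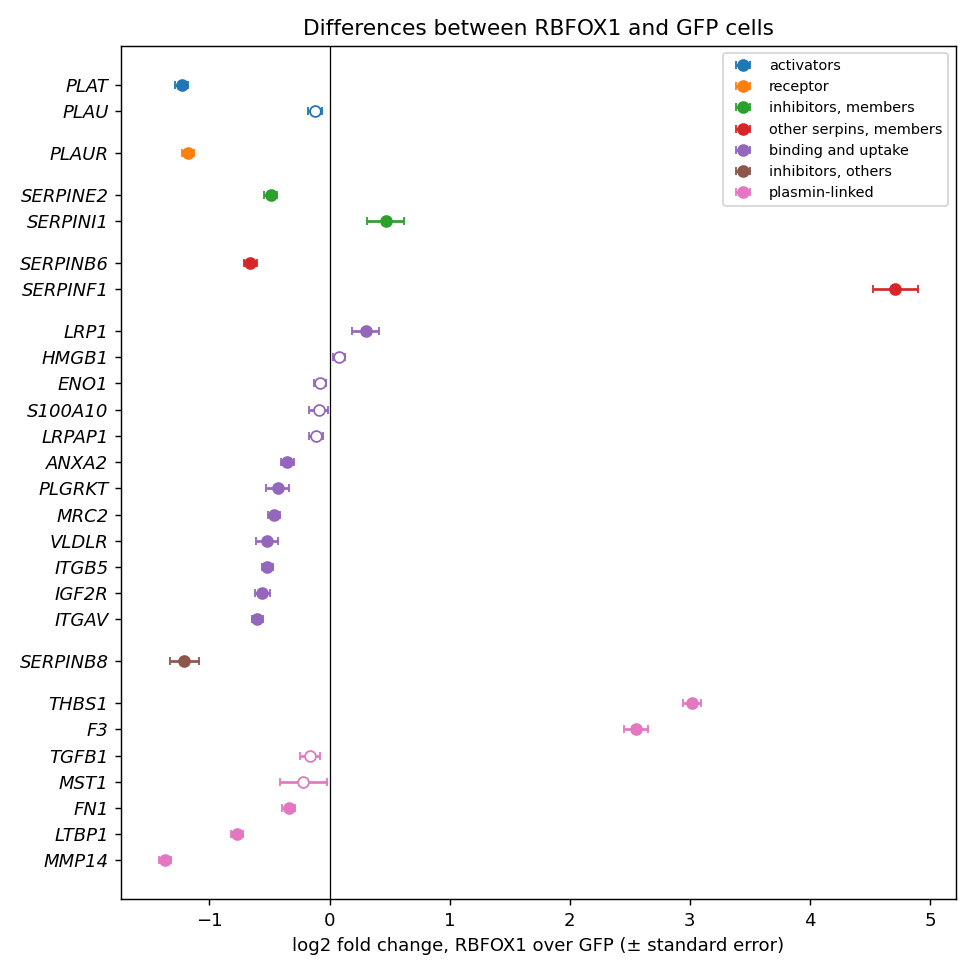
Log2 fold change of RBFOX1 over GFP cells with its standard error, for the members tested and for genes of the wider lists of binding and uptake, inhibitors and plasmin-linked genes with a mean of at least 50 normalized counts, coloured by role (filled, adjusted p under 0.05; open, not). PLAT and PLAUR fell by 1.23 and 1.18, and SERPINF1 stands at 4.71. The cutoff leaves SERPINB8 as the only inhibitor drawn from the wider lists. VTN, SERPING1 and SPINT2, called higher with log2 fold changes of 2.90, 1.37 and 3.37, are under it and not drawn. The value of SPINT2 rests on no more than 6 counts in a library, too few to be tested with filterByExpr.

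Besides the members, 30 genes of the serpin family were listed, 6 of them also among the inhibitors above. Of the 11 tested, 4 were higher and 3 lower (23.7% and 22.9% of all genes tested), with a median log2 fold change of 0.07. Another 15, like SERPINB2, had no count in any library. SERPIND1, heparin cofactor II, fell from 102 ± 6.68 to 9.06 ± 5.09 normalized counts (log2 fold change -3.60), and AGT, angiotensinogen, a serpin without inhibitory activity like PEDF, rose from 111 ± 10.3 to 402 ± 10.2 (log2 fold change 1.85; n = 3 each, SD). SERPINA1, alpha1-antitrypsin, rose at 6 to 13 counts (adjusted p = 0.0296, edgeR), and SERPINA9 had 1, 2 and 1 counts in GFP and 2, 5 and 10 in RBFOX1 cells. SERPINA1 was not called without GFP replicate 1 (adjusted p = 0.160), RBFOX1 replicate 1 (adjusted p = 0.0916) or RBFOX1 replicate 2 (adjusted p = 0.0878), and SERPINA9 was not called without RBFOX1 replicate 3 (adjusted p = 0.0760). SERPINB1, lower over all libraries, was not called without RBFOX1 replicate 3 either (adjusted p = 0.0532, all edgeR). SERPINF1, at 4.71, had the largest log2 fold change among the members and the serpins listed here, and SERPIND1 the lowest.

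For each member called, the protein-coding gene outside the members with the most similar profile was sought by Pearson's r of log2 CPM over the 6 libraries, among 11062 genes with a mean of at least 50 normalized counts. With 2 groups of 3, r mostly reflects the difference between the groups, and for PLAUR 1167 genes had an r of at least 0.98. For PLAT it was 1071 genes, for SERPINB6 698, for SERPINF1 510 and for SERPINE2 292. The closest to PLAUR was SPP1, encoding osteopontin (r = 0.9999), which fell from 3095 ± 118 to 284 ± 22.8 normalized counts (n = 3 each, SD). The closest to PLAT was the metal transporter gene SLC39A14 (r = 0.9999), to SERPINE2 MICB (r = 0.9991), to SERPINB6 DGKA (r = 0.9996) and to SERPINF1 the phosphatase gene DUSP5 (r = 0.9994). An r does not measure the size of a change. The log2 fold changes were -0.71 (SLC39A14), -0.79 (MICB), -0.69 (DGKA) and 0.39 (DUSP5), where SERPINF1 was at 4.71. For SERPINI1, whose groups overlapped, the closest was CCSAP (r = 0.9965), which itself did not pass the threshold, and 5 genes had an r of at least 0.98.

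Library totals ran from 7433414 to 23249221 counts on genes, and RBFOX1 replicate 1 was the shallowest. The label of a glioblastoma line was checked against markers. Of 8 such markers 7 were tested, with 5 lower and 1 higher in RBFOX1 cells. Among all genes tested 22.9% were lower and 23.7% higher. The summed level of the 8 was 78954 to 80034 normalized counts in GFP and 52067 to 52730 in RBFOX1 cells. Most of that sum was VIM, with a mean of 59588 in GFP and 37905 in RBFOX1 cells. The 1 marker that rose was NES (log2 fold change 0.60). VIM, NES, CD44 and SOX9 were abundant. GFAP had 1 to 4 counts and S100B 0 to 2 counts in a library, so these astrocyte markers were near 0. Several markers of other cell types also differed between the lines, and the construct and the line cannot be told apart here. Of 3 endothelial markers tested, 3 were higher in RBFOX1 cells (PECAM1, VWF and CDH5), CLDN5 had at most 1 count, and the summed level of the 4 was 10.9 to 12.8 normalized counts in GFP and 96.8 to 109 in RBFOX1 cells. Of 4 epithelial markers 3 were higher, at a summed 6242 to 6517 and 24596 to 25577, mostly KRT18, or 8.43 to 14 and 49.0 to 66.7 without it. Of 2 leukocyte markers tested 1 was higher, PTPRC, with AIF1 and CD3E at 0 in every library and a summed 12.8 to 25.5 and 52.6 to 68.5. The part of such shifts in the values of PLAT, PLAUR, SERPINF1 and the other members was not tested.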

How the data were processed

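Libraries from rRNA-depleted total RNA of the A172 lines kept the strand and were read as pairs. The authors mapped them with HISAT2 to GRCh38, ran HTSeq-count (intersection-strict, reverse strand) on Ensembl v87, and deposited raw counts per gene. The deposited DESeq2 table (mean, log2 fold change, standard error, statistic and p-values) holds their own comparison and was not used.

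TMM-scaled counts of genes with a sum of at least 10 were tested with edgeR 4.0.16 (R 4.3.3; two-sided quasi-likelihood test, condition only) and adjusted over all of them by Benjamini-Hochberg. The standard error is the absolute log2 fold change over the root of F. On simulated counts (20120 genes, 200 of them changed by 1 on the log2 scale) edgeR recovered 182 with 15 false calls, limma-voom 180 with 12, and DESeq2 (20536 genes) 167 with 5. The changes were balanced between up and down. In the data 46.6% of genes tested passed, and the simulation does not measure error or scaling where so many genes differ. Of the identifiers, 98.1% matched GENCODE 44, which gave symbols, lengths and UTRs. HTSeq's lines of uncounted reads were left out, and 52.0 to 61.9% of read pairs were counted on genes. Replicates were further apart than sampling noise (chi-square per degree of freedom 1.60 to 8.23, with both values over 2.80 in pairs with GFP replicate 1). Alternatives used other scalings, filters, DESeq2 1.42.0, limma-voom 3.58.1, a replicate block and omitted libraries.

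The members and lists were chosen with earlier results of these data known. Named by rule were RBFOX1, the members, genes of the wider and serpin lists that passed with a log2 fold change of 1 or more in size, the 2 of each wider list with the most counts per kilobase summed over both group means, the neighbouring genes, and the most similar profiles. C10orf55, ANXA2, ITGAV, PLGRKT, LRP1, TGFB1, ITGB3, SERPINB1, PLG and the cell type markers were named apart from it, after their values were seen. One item of the wider system is not reported here.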

Additional observations from a re-analysis of the deposited data

How the results depend on the processing

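PLAT, PLAUR, SERPINE2, SERPINB6 and SERPINF1 kept their direction and their call in all 13 alternative fits. Of the members, 4 were lower in every fit except upper quartile scaling, where PLAU made 5, and 2 were lower with a log2 fold change of 1 or more in size. SERPINI1 was lost with DESeq2, which left 1 member higher, as did the fold minimum and an adjusted p under 0.01; omitting each library in turn gave 1 to 2 members higher. With the fold minimum the wider list had 6 genes higher and 2 lower, against 7 and 11 without it. The 6 include HPN and SPINT2, at no more than 6 counts in a library. Over all genes tested, 8.23% were higher and 4.48% lower with that minimum. With 1 library omitted, 11 to 14 genes of the wider list were lower. The 14 came without GFP replicate 1, with S100A10, TGFB1 and ITGB3 added. The 7 higher of the wider list fell to 5 with DESeq2, with filterByExpr and without RBFOX1 replicate 2. The other serpins had 2 higher with filterByExpr and with DESeq2 against 4. The RBFOX1 transcript was called in each fit (log2 fold change 13.16 to 14.73 with 1 library omitted). The ratio of activators to inhibitors was 5.58 in GFP and 3.49 in RBFOX1 cells per kilobase of the longest transcript, so that RBFOX1 over GFP was 0.626 instead of 0.663. No sign of pairing by replicate number was seen (correlation of deviations -0.174, 0.0348 and -0.0586 for numbers 1, 2 and 3). Deviations from the mean of 3 libraries are too constrained for this check to decide the point. With a replicate block 4 members were lower and 2 higher. For these results the cause of a changed call was not tested. Depth limits SERPINB2 and the genes with a few counts per library.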
